A study of Mus musculus with 8 samples.

Results

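The tallest open-chromatin peaks of mouse kidney tubuloids were the 247 of 6425 peaks (3.84%) whose mean value over 8 ATAC-seq libraries was at least 50. ATAC-seq reads out open DNA through the Tn5 transposase, which inserts sequencing adapters where chromatin is accessible. Tubuloids are epithelial structures, grown here in Matrigel from digested kidney cortex and labelled as renal tubular epithelial cells in primary culture. The groups were 4 vehicle libraries and 4 libraries from tubuloids given myoglobin, all taken after 12 h. Myoglobin is a haem protein that injured muscle releases and that harms kidney tubules. All 8 came from wild-type cells in the same kind of culture, and age, sex and strain of the animals were not given. The series text gives 4 mice without tying a library to a mouse, so p-values measure only the spread between these libraries, which may be technical. The value of a peak is its read number after scaling between libraries and rounding by the authors, so it adds up over the width of the peak. Peaks were chosen by their height over both groups, so heights are described without a test. The rule took no account of the direction of a difference, but a peak could reach 50 through its higher group alone. The vehicle mean was 50 or more at 226 of the 247 and the myoglobin mean at 225.

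An active promoter keeps the DNA next to its transcription start site free of nucleosomes, which leaves it open to Tn5 in most cells of a culture. Broadly used genes often start inside CpG islands, stretches rich in G, C and CpG that carry GC boxes for SP and KLF factors, CCAAT boxes for NFY, and ETS or CRE-type sites. Promoters of this kind are usually among the strongest signals of an ATAC-seq library, whatever the tissue.

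RefSeq promoter sequences (build GRCm38.p6, the assembly that mm10 names, from 250 bases before to 50 after a start site) are printed for 7 tall peaks that cover at least 150 bases of such a window. They are the 4 tallest with a window, the Lcorl promoter because it was the single tall peak called with myoglobin, the Kdm1b peak because its p was the third smallest and it holds a divergent gene pair, and Nfe2l2 because it encodes the stress regulator NRF2. All read 5′ to 3′ along the strand of the gene. Capitals mark matches on either strand to the ETS letters CCGGAAG, the GC box GGGCGG, the CCAAT box CCAAT and TGACG, the CRE core. The windows are Sertad2 (chr11:20542916-20543215, plus strand), Mob3a in the peak assigned to Izumo4 (chr10:80701771-80702070, minus strand), Sp1 (chr15:102406066-102406365, plus strand), Garnl3 (chr2:33130570-33130869, minus strand), Lcorl (chr5:45857491-45857790, minus strand), Tpmt in the peak assigned to Kdm1b (chr13:47043168-47043467, minus strand) and Nfe2l2 (chr2:75704614-75704913, minus strand).
Sertad2: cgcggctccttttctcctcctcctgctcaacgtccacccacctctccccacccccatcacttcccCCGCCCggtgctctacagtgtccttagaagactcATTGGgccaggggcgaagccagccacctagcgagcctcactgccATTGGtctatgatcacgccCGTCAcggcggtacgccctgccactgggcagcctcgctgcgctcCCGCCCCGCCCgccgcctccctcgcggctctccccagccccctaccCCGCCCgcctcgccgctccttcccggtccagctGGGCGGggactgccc
Mob3a: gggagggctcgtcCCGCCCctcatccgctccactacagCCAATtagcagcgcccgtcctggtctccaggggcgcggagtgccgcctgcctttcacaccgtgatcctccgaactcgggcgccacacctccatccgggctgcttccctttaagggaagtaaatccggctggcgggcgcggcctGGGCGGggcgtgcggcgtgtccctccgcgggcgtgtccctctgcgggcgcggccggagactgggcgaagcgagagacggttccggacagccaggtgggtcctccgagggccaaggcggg
Sp1: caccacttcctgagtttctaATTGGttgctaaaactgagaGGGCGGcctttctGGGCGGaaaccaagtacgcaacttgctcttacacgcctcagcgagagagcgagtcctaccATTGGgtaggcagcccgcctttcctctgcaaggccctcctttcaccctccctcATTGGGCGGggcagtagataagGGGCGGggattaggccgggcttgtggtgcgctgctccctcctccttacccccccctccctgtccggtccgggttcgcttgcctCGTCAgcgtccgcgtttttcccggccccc
Garnl3: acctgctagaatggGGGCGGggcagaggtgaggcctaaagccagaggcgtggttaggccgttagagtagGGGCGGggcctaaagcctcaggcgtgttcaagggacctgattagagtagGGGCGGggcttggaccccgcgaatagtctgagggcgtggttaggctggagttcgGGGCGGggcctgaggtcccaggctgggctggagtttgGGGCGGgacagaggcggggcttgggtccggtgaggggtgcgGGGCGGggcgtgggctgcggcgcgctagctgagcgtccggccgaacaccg
Lcorl: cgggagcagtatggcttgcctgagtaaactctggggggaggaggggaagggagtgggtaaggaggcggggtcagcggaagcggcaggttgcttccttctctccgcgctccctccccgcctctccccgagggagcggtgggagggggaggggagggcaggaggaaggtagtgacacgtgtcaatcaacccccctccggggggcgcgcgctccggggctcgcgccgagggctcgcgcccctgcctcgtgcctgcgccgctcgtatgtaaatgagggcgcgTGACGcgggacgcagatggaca
Tpmt: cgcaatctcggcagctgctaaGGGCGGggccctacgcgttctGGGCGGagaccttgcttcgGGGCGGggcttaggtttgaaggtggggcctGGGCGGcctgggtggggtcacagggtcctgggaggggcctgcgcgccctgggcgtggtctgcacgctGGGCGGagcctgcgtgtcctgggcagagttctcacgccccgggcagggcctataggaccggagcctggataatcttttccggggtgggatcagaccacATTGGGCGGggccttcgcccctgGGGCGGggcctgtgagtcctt
Nfe2l2: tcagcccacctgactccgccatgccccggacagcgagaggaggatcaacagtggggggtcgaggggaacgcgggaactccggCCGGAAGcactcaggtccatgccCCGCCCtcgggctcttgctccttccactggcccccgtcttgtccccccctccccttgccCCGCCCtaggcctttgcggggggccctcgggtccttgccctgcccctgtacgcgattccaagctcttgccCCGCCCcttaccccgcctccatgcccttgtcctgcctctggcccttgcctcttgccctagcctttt
The Garnl3 window held 6 GC boxes and the Tpmt window 7, and the Sp1 window held 4 GC boxes and 3 CCAAT boxes. The Lcorl window held 0 GC boxes, 0 CCAAT boxes and 1 CRE core, at a GC content of 69.7%. A match describes the letters and does not show that a factor was bound.

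Over the 175 tall peaks with a coding promoter window, the median GC content was 65.7%, against 65% in the windows of 1991 other peaks and 56.3% in all 21263 coding windows of the table. The CpG observed-over-expected ratio had medians of 0.773, 0.823 and 0.567 in these 3 sets. Motif shares are given in the same order of tall peaks, other peaks and all coding windows, from a search of both strands, as descriptions with no test. A GC box was found in 87.4%, 82.5% and 46.2%, and a CCAAT box in 64.6%, 55.6% and 38.2%. Over all 32851 windows, non-coding ones included, these shares were 35.7% and 37.4%. The ETS letters were found in 10.9%, 21.8% and 11.6%. The CRE core stood at 34.9%, 38.4% and 23.6%, the full CRE TGACGTCA, which contains it, at 1.14%, 3.67% and 2.23%, and the E-box CACGTG at 8.0%, 9.99% and 7.84%. The TATA box TATAAA was found in 3.43%, 3.47% and 12.6%, and the AP-1 letters TGANTCA in 2.29%, 4.07% and 6.99%. CTCTTTCC, a pyrimidine-rich start like that of translation genes, stood at 4.0%, 2.01% and 3.02%. The letters TGANNNNGC, a short and degenerate form of the antioxidant response element, were found in 50.3%, 46.2% and 41.7%. TGTTCT, part of the glucocorticoid receptor element, was found in 9.71%, 8.79% and 16.2%. Longer NRF1 and YY1 motifs matched 1 and 3 tall windows. These shares describe windows that a peak had to cover by 150 bases, which narrow peaks do less often.

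Tall peaks were wide. Their median width was 503 bp (quartiles 436.5 and 612.5 bp), against 198.5 bp for the other 6178 peaks, and 246 of the 247 were wider than the upper quartile of the others. Across all peaks, which share libraries and depth, Spearman's rho between mean value and width was 0.878, and among the tall peaks it was 0.462. Per kilobase the gap narrowed, with medians of 122.9 for tall peaks and 76.7 for the others. Of the 247 tall peaks, 130 were among the 247 widest and 98 among the 247 highest per kilobase. The widest were at Gsk3b (933 bp), which encodes a kinase of the WNT and insulin pathways, Slc27a1 (901 bp), a fatty acid transporter gene, and Fkbp2 (879 bp), which encodes a prolyl isomerase of the endoplasmic reticulum. The narrowest were a peak 12224.5 bp from the nearest RefSeq start, that of Pisd (260 bp), the Znf687 promoter (308 bp) and a peak 140.5 bp from the Sh3tc1 start (314 bp). Per kilobase these narrow peaks reached 200, 199.7 and 176.8, above the 100.9 of the Gsk3b peak.

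**Figure D1:**
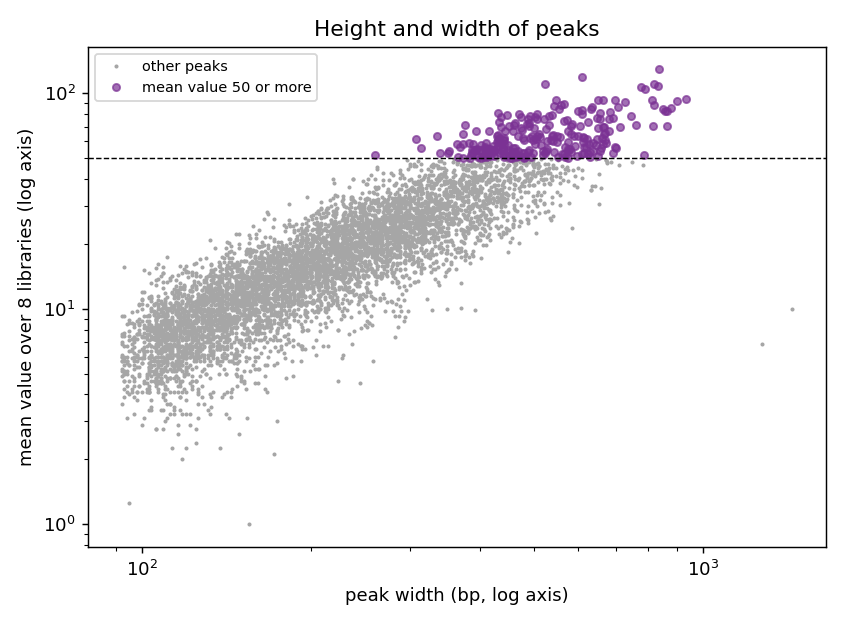
Peak width in bp (x, log axis) against the mean value over 8 libraries (y, log axis) for all 6425 peaks, with the 247 tall peaks in purple and a dashed line at 50. Values climb with width, and the tall peaks are 260 to 933 bp wide.

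Most tall peaks sat at promoters of protein-coding genes. The deposited table assigned a gene to 227 of them, 220 of which were protein-coding, and no gene to 20. The peak centre lay within 1000 bp of the assigned start site in 205 (83.0%), against 64.0% of other peaks and 64.8% of all. When the same number of peaks was chosen by highest value per kilobase, this share was 68.4%, nearer to that of all peaks. The gap thus depends on choosing peaks by a value that adds up over width, and the part played by width was not tested. Very near centres were less frequent, since 26.7% of tall peaks lay within 100 bp of the start against 36.2% of the others. Among peaks within 1000 bp, the median signed offset was -109.5 bp (upstream) for tall peaks and -34.5 bp for the others. Of these peaks, 77.1% of the tall and 62.3% of the others spanned the start site. Wider peaks span a start more readily, and the tall centres lay farther from it, at a median of 161 bp against 85 bp. Chromosome X held 100 peaks and 0 tall ones, and the highest tall shares were 5.44% on chromosome 7, 5.31% on chromosome 5 and 5.03% on chromosome 8.

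Of the 22 tall peaks assigned to a start over 1000 bp away, 11 were within 500 bp of a RefSeq start of the same gene. The peak assigned to Ing1, a subunit of histone deacetylase complexes, was 2616 bp from the assigned start and 223 bp from a RefSeq start. The peak assigned to Nr3c2, the mineralocorticoid receptor gene, was 2651 bp from one and 237.5 bp from the other. Of the 20 tall peaks with no gene, 10 were within 500 bp of a RefSeq coding start, such as Ptprs (73.5 bp), Por (155.5 bp), which encodes cytochrome P450 reductase, and Slc6a19 (11 bp), the neutral amino acid transporter of the proximal tubule. Counting either table, 228 tall peaks (92.3%) were within 1000 bp of a start, against 69.0% of the others, and 19 were not. The RefSeq table is not complete and was searched for coding starts only, so the 19 may include peaks near a start it lacks. The highest of those 19 was inside Clec11a, which encodes a secreted growth factor, at 115 ± 15.3 and 100.5 ± 8.43 in vehicle and myoglobin (SD, n = 4 each). Next were a peak inside Ssc4d, a scavenger receptor gene, at 87.0 ± 8.04 and 80.0 ± 13.7, and one inside Rxra, which encodes a retinoid X receptor, at 78.8 ± 7.46 and 82.2 ± 19.3. Placement in exons or introns was left aside, because no exon annotation was used.

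A pair of divergent coding starts lay within 500 bp of the centre of 24 tall peaks (9.72%), against 5.91% of the others, by the genes of the RefSeq promoter table, which is not complete. Tall peaks more often had any coding start that near (74.1% against 53.2%). Among peaks with one, divergent pairs were at 24 of 183 tall peaks and 365 of 3286 others, a smaller gap. Such pairs included Hdgfl2 with Ubxn6, Psme2 (a proteasome activator subunit) with Rnf31, Kdm1b with Tpmt, and Npc2 (a lysosomal cholesterol carrier) with Isca2. Tall peaks also lay near one another in places. The densest 1 Mb held 6 tall peaks of 14, on chromosome 5 from 134985733 to 135962980. These were the promoters of Cldn3 (a tight-junction claudin), Abhd11, Tbl2 and Hip1 (an endocytic adaptor), a peak at the Por start and the Ssc4d peak. Their myoglobin-minus-vehicle log2 differences ran from -0.13 to 0.06, with a SE of 0.11 to 0.15.

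The 10 tallest peaks had means of 93.1 to 129.4, and vehicle and myoglobin libraries overlapped in each. The tallest (chromosome 16, 42875022 to 42875855) lay 442 bp from an assigned start of Zbtb20, a zinc finger repressor gene. Its values were 125, 135, 135 and 113 in vehicle and 140, 136, 125 and 126 in myoglobin. Sertad2, a transcriptional co-regulator gene, followed (chromosome 11, 20542691 to 20543300) with 108, 122, 131 and 115 in vehicle and 131, 127, 125 and 99 in myoglobin. In both, the groups were intermixed. Kctd9 (chromosome 14, 67715687 to 67716210), which encodes a protein with a potassium-channel tetramerisation domain, had 112 ± 10.7 and 109.2 ± 6.40 in vehicle and myoglobin, and at 211.1 per kilobase it was the densest of the 10. The others were Izumo4, Clec11a, Sp1 (the GC-box factor), Garnl3, Gsk3b, Hdgfl2 and Rab40c, a Rab GTPase gene. Across all 10, log2 differences ran from -0.19 ± 0.11 (SE) at Clec11a to 0.11 ± 0.11 at Garnl3, with adjusted p of 0.698 to 0.999 by limma.

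**Figure D2:**
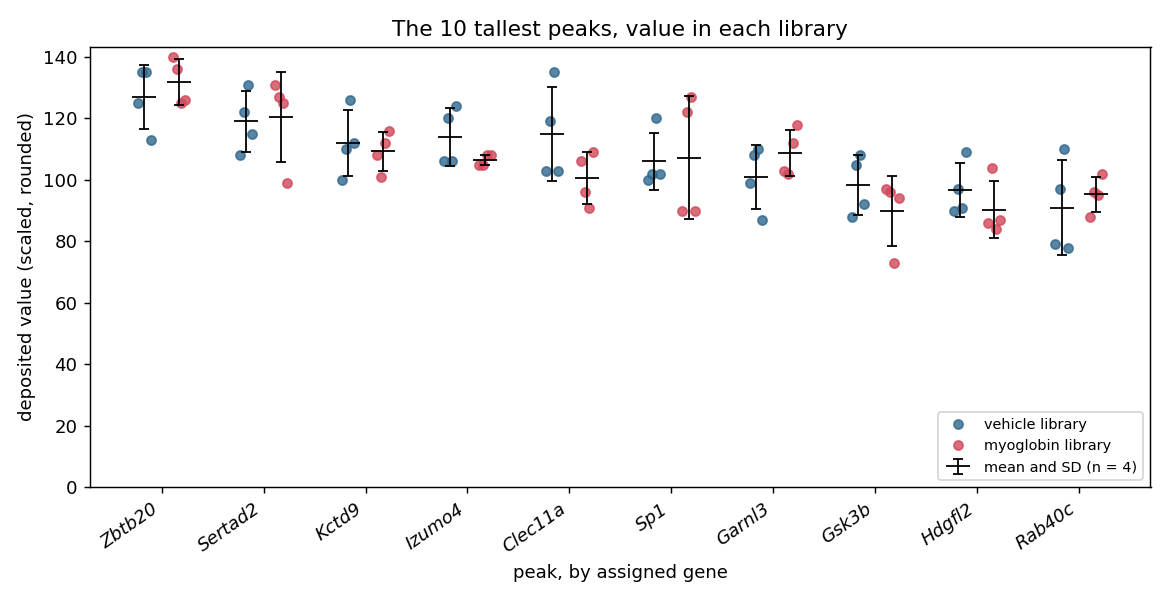
Deposited value (y) in each vehicle (blue) and myoglobin (red) library for the 10 tallest peaks (x, by assigned gene), with black marks for the mean and SD of 4 libraries. The group means stand between 90.0 and 131.8, and the points of both groups overlap at every peak.

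At the threshold, Npc2 and Lins1 had means of 50.0 and Kdm4a 50.1, while Azi2 and Mrpl18 at 49.75 and Nfe2l1 at 49.6 were outside. Values of 50 or more in every library were found at 111 of the 247. The lowest single value of a tall peak was 30 and the highest 140.

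Depth was lower with myoglobin. The steps between whole numbers in each column gave an estimated 130568 to 200519 reads in peaks for vehicle libraries and 67609 to 123453 for myoglobin libraries, with replicates 3 and 2 the shallowest. Each tall peak rested on an estimated 401.3 to 1092 reads over the 8 libraries, with a median of 503.3 against 63.8 for peaks with a mean under 10. Of 15 epithelial markers, Epcam, Cdh1, Cdh16, Cldn4, Cldn7, Esrp1, Grhl2 and Pax2 had peaks, as did 1 of 15 proximal tubule markers (Cryl1) and 1 of 15 loop, distal and collecting duct markers (Scnn1g). None of the 8 endothelial, 8 fibroblast and pericyte, 8 immune or 6 podocyte markers had a peak assigned. No marker on any of these lists had a tall peak. Outside the lists, and named after their values were seen, the epithelial genes Cldn3, Elf3 (an ETS factor) and Jup (plakoglobin) did, and 1 tall peak with no gene assigned lay at the start of the proximal tubule gene Slc6a19.

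The spread between libraries was smaller in taller peaks and close to what read sampling gives. Between vehicle libraries the coefficient of variation was 38.0% for peaks with a mean under 10, 25.2% from 10 to under 20, 17.2% from 20 to under 50 and 11.8% for tall peaks, where sampling of the estimated reads alone would give 10.9%. Between myoglobin libraries the same values were 45.9%, 32.3%, 22.5% and 14.9%, with 14.7% from sampling in tall peaks. The median SE of a log2 difference was 0.39 in the lowest class and 0.14 in tall peaks. Sampling values cover counting error only, since amplified reads are not independent molecules.

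**Figure D3:**
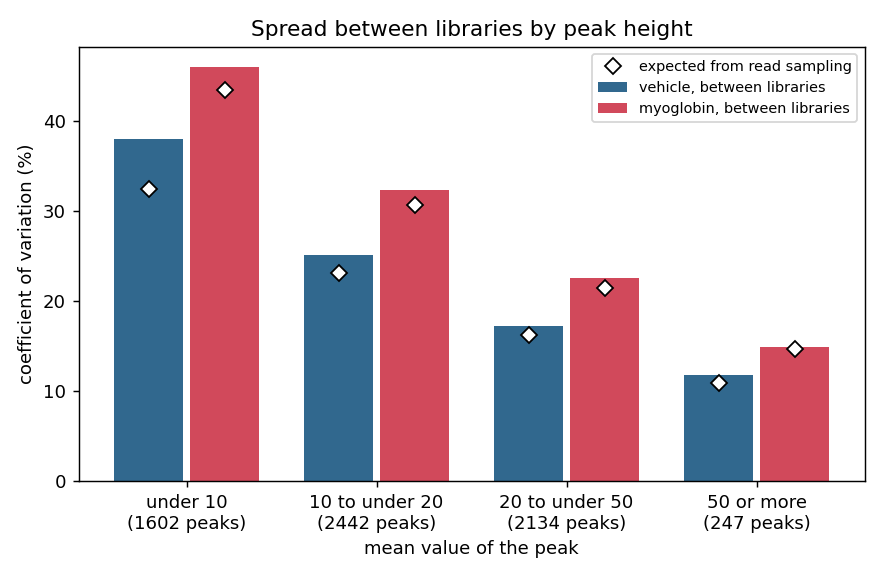
Coefficient of variation in percent (y) between the 4 vehicle (blue) and 4 myoglobin (red) libraries, in classes of mean value (x), with diamonds for the part expected from read sampling. Both bars are shortest at 50 or more, at 11.8% and 14.9%.

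Tall peaks are where a small change with myoglobin can be seen best. Of the 247, 1 rose, at the Lcorl promoter, and 0 fell by limma, where 0.202% of all peaks were called higher and 0.0467% lower. Lcorl reached 50 only through its myoglobin libraries, with means of 47.0 in vehicle and 74.0 in myoglobin. By vehicle mean it would not be a tall peak. At an unadjusted p under 0.05 by limma there were 23 tall peaks (9.31%, background 7.60%), 7 higher (2.83%, background 3.67%) and 16 lower (6.48%, background 3.92%). The share in either direction was 6.43% for means under 10, 7.37% from 10 to under 20 and 8.53% from 20 to under 50. Without vehicle replicate 3 the 23 became 14, and without any other single library the count was 21 to 29. The log2 differences of tall peaks ran from -0.43 to 0.63, with a 5th percentile of -0.29 and a 95th of 0.24, and 218 of 247 were smaller than a fold of 1.2 in either direction. The 95% interval of the difference lay within a fold of 2 for all 247 tall peaks and within a fold of 1.5 for 234 (94.7%). These intervals, like the SEs and p-values of the fit, rest mostly on a variance trend shared by all peaks. The trend weighed 78.5 degrees of freedom, against 6 from the libraries of the peak itself. For peaks with means of 20 to under 50, 10 to under 20 and under 10, it lay within a fold of 1.5 in 57.4%, 9.91% and 0%. In these bulk libraries, a change in the share of cells of a type and a change of openness per cell cannot be told apart.

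**Figure D4:**
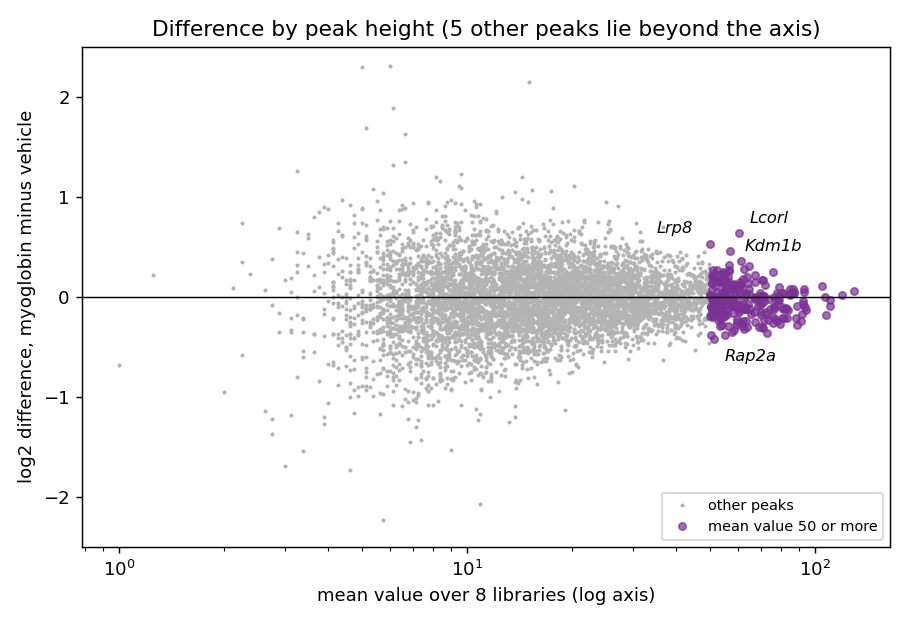
Log2 difference, myoglobin minus vehicle (y), against the mean value over 8 libraries (x, log axis) for all peaks, with the 247 tall peaks in purple. The cloud narrows with height, the Lcorl promoter at 0.63 is the highest purple point, and 5 other peaks beyond 2.5 are not shown.

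The median log2 difference was -0.03 over tall peaks and -0.02 over all 6425, and 147 tall peaks (59.5%) were below 0, where 52.8% of all peaks were. For peaks with means of 20 to under 50, the median was -0.004 and 50.6% were below 0. For means of 10 to under 20 these values were -0.0155 and 52.1%, and for means under 10 they were -0.0593 and 55.7%. With single libraries left out, the count of tall peaks below 0 ran from 134 to 159. Tall peaks took 12.5, 12.8, 13.2 and 12.7% of the total value in the vehicle libraries and 12.4, 12.5, 12.5 and 12.6% in the myoglobin libraries. The groups overlapped, and the means were 12.8% ± 0.33 and 12.5% ± 0.093 (SD, n = 4).

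At the Lcorl promoter (chromosome 5, 45857353 to 45858021, centre 72 bp from the start), which serves a gene for a nuclear receptor corepressor-like protein, the values were 51, 46, 45 and 46 in vehicle and 61, 72, 90 and 73 in myoglobin. Every myoglobin library stood above every vehicle library, and myoglobin replicate 3 was the highest. The log2 difference was 0.63 ± 0.14 (SE, 95% interval 0.36 to 0.91), with adjusted p = 0.0150 by limma. The call was lost without vehicle replicate 2 (adjusted p = 0.0817 by limma), vehicle replicate 4 (0.0662) or myoglobin replicate 3 (0.0877), and without both shallow libraries (0.257), with log2 differences there of 0.62, 0.62, 0.53 and 0.50. The peak was 669 bp wide and held 90.4 per kilobase, below the tall median.

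No other tall peak passed. Lrp8 and Kdm1b, like Lcorl, reached 50 through myoglobin, with vehicle means of 41.0 and 47.75 and myoglobin means of 59.25 and 66.25. In Lrp8, the gene of an apolipoprotein E receptor (chromosome 4, 107803538 to 107803991), the peak lay 1896 bp from the assigned start and 879.5 bp from a RefSeq start. Its values were 37, 39, 48 and 40 in vehicle and 63, 63, 58 and 53 in myoglobin, which did not overlap (log2 difference 0.52 ± 0.15, adjusted p = 0.174 by limma). Kdm1b, which encodes a histone H3K4 demethylase, shares its peak (chromosome 13, 47043163 to 47043594) with Tpmt, which encodes thiopurine methyltransferase. It had 46, 49, 51 and 45 in vehicle and 64, 69, 76 and 56 in myoglobin, again without overlap (log2 difference 0.46 ± 0.14, adjusted p = 0.249 by limma). Rps6ka2, a ribosomal S6 kinase gene, stood at 57.5 ± 4.51 and 71.5 ± 9.33 in vehicle and myoglobin, also without overlap. Rxylt1, a glycosyltransferase gene of dystroglycan, was at 53.2 ± 4.99 and 69.2 ± 13.8, and Pdcd10, a gene of cerebral cavernous malformation, at 50.0 ± 3.16 and 63.0 ± 11.2, both with overlapping groups.

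On the lower side, none of the 6 peaks with the smallest p passed. Rap2a, a small GTPase gene (chromosome 14, 120477448 to 120477916), had 62, 49, 74 and 52 in vehicle and 46, 43, 37 and 48 in myoglobin. Its groups did not overlap, by 1 unit of value, and the log2 difference was -0.43 ± 0.15 (adjusted p = 0.454 by limma). Rap2a reached 50 through its vehicle libraries, with means of 59.25 in vehicle and 43.5 in myoglobin. Fbrs, the fibrosin gene (chromosome 7, 127477725 to 127478186), had 76, 89, 96 and 67 in vehicle and 71, 72, 62 and 49 in myoglobin, with overlap (log2 difference -0.37 ± 0.13, adjusted p = 0.470 by limma). The others overlapped too. They were Nhlrc4 (62.5 ± 10.8 and 48.0 ± 9.42), a peak 138 bp from the start of Etfdh, an electron-transfer gene of fatty acid oxidation (56.5 ± 3.70 and 44.2 ± 12.6), a peak 312.5 bp from the Mast3 start (65.0 ± 9.42 and 50.2 ± 3.20) and Mtmr4, a phosphoinositide phosphatase gene (97.5 ± 10.6 and 80.0 ± 9.66). Of the 247, 10 had groups that did not overlap (4.05%, background 3.04%), 4 with myoglobin higher (1.62%, background 1.45%) and 6 lower (2.43%, background 1.59%).

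**Figure D5:**
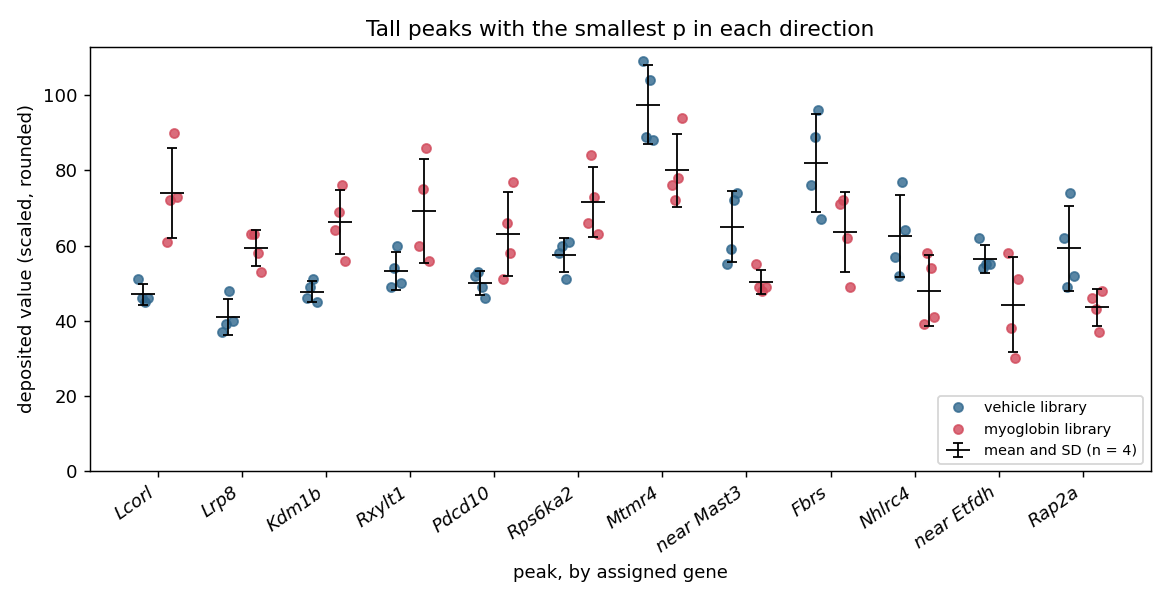
Deposited value (y) in each library for the 6 higher and 6 lower tall peaks with the smallest p (x, by gene), vehicle in blue and myoglobin in red, with the mean and SD of 4 libraries in black. Among the higher peaks the groups separate at Lcorl, Lrp8, Kdm1b and Rps6ka2, and among the lower ones at Rap2a.

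By gene family, tall peaks were spread over many functions, and the Lcorl call was in none of the lists. The lists take in only peaks with a symbol, of which 216 of 4391 were tall. That is a larger share than the 3.84% of all peaks, so list shares just over 3.84% are not raised. Tall peaks made up 12.8% of the 39 chaperone peaks, 7.59% of the 79 chromatin regulator peaks, 5.52% of the 145 zinc finger peaks, 4.69% of the 128 ubiquitin and proteasome peaks and 4.59% of the 109 transporter peaks. They made up 2.73% of the 110 kinase and phosphatase peaks, 2.68% of the 112 vesicle traffic peaks, 1.54% of the 65 mitochondrial peaks (Tomm40 alone), 1.23% of the 81 splicing peaks (Khsrp alone) and 1.15% of the 87 cell cycle and repair peaks (Rrm2b alone). The ribosomal and translation list matched 2 tall peaks of 68, Rps6ka5 and Rps6ka2, which are kinase genes that its symbol pattern took in, so 0 ribosomal protein promoters were tall. The tubule injury list had 3 peaks and 0 tall. In each list 0 tall members passed in either direction, where 0.249% of all peaks did.

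Of the 5 tall chaperone promoters, 3 were above and 2 below 0, with a median log2 difference of 0.00. Hspa8, which encodes the constitutive HSC70, was at 51.5 ± 5.92 and 54.0 ± 12.4 in vehicle and myoglobin, and Hsp90b1, the endoplasmic reticulum HSP90, at 54.5 ± 4.43 and 54.5 ± 2.52. Stip1, a co-chaperone linking HSP70 and HSP90, was at 57.5 ± 10.7 and 49.2 ± 6.75, Pdia4, a disulfide isomerase, at 71.5 ± 8.19 and 67.2 ± 4.99, and Fkbp2 at 83.5 ± 13.8 and 87.0 ± 21.8. The 95% interval of the log2 difference at Hsp90b1 ran from -0.28 to 0.28. All 5 had overlapping groups.

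Glucocorticoid target and clock genes had 4 tall members of 16 peaks, with a median log2 difference of -0.21. All 4 were below 0 in each of 19 fits, which reuse the same libraries and are not separate evidence, and 0 passed. In the fit reported, 59.5% of tall peaks and 52.8% of all peaks were below 0. All 16 peaks of the list had a median of -0.13. Nr1d2, which encodes the clock repressor REV-ERB beta, had 61, 74, 60 and 81 in vehicle and 65, 57, 52 and 58 in myoglobin (log2 difference -0.24 ± 0.14). Per1, a core clock gene that glucocorticoids induce, had 56, 50, 59 and 52 in vehicle and 41, 54, 50 and 45 in myoglobin (-0.19 ± 0.15). Arrdc2, an arrestin-domain gene, stood at -0.22 ± 0.14 and Nr3c2 at -0.13 ± 0.14. Each of the 4 had overlapping groups, and the adjusted p ran from 0.698 to 0.899 by limma. Among tall peaks outside the list and named after their values were seen, the clock repressor gene Bhlhe40 was at 0.26 ± 0.15, and the arrestin-domain genes Arrdc3 and Arrdc4 at -0.07 ± 0.15 and -0.12 ± 0.13.

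Stress and signal regulators had tall promoters and no called change. The haem, iron and oxidative stress list had 2 tall members of 12 peaks, Aco1 and Nfe2l2, both below 0 (median -0.14). Each rested on 1 library: without myoglobin replicate 3 the log2 difference at Aco1 was -0.01, and without myoglobin replicate 2 that at Nfe2l2 was 0.02. The signal-responsive factors had 4 of 67, 1 above and 3 below 0 (median -0.09). Nfe2l2, which encodes NRF2, the activator of haem and oxidant defence, had 48, 57, 55 and 54 in vehicle and 54, 37, 52 and 57 in myoglobin, a log2 difference of -0.11 with a 95% interval from -0.41 to 0.19. Aco1, which encodes iron regulatory protein and cytosolic aconitase, was at 68.8 ± 5.32 and 62.0 ± 12.8. Stat3, the gene of a cytokine-activated factor, was at a log2 difference of 0.19 ± 0.15, Relb of the non-canonical NF-kB pathway at -0.11 ± 0.16 and Crebrf at -0.07 ± 0.15. All 5 had overlapping groups, with adjusted p of 0.828 to 0.953 by limma.

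Of 6 tall chromatin regulators, 3 were above and 3 below 0, with a median log2 difference of 0.01. Kmt2b, an H3K4 methyltransferase gene, was at 64.2 ± 5.91 and 65.5 ± 3.11, and Kmt5c, an H4K20 methyltransferase gene, at 59.2 ± 7.14 and 68.0 ± 5.60. Ing1 had 76, 76, 82 and 74 in vehicle and 69, 72, 63 and 69 in myoglobin, which did not overlap although the log2 difference was -0.17 ± 0.12 (adjusted p = 0.791 by limma). Kdm4a, an H3K9 demethylase gene, was at -0.19 ± 0.15. Zinc finger genes had 3 above and 5 below 0 (median -0.03), among them Zbtb20 at 0.05 ± 0.10 and Zfp78 at -0.21 ± 0.12.

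In the remaining families, Khsrp, which encodes a splicing and mRNA decay factor, was at 99.0 ± 4.97 and 83.8 ± 7.54 (log2 difference -0.24 ± 0.11, adjusted p = 0.610 by limma). Atp1b1, the sodium pump beta subunit gene, was at 78.2 ± 13.7 and 79.0 ± 13.3, and Slc27a1 at 97.0 ± 7.44 and 86.5 ± 11.9. Usp22 (a histone deubiquitinase gene), Birc6 and Tomm40 (the import pore of mitochondria) stood at -0.03, 0.00 and -0.04 on the log2 scale. Rab8a was at -0.24 ± 0.13, Map3k3 at -0.04 ± 0.12 and Rrm2b, a p53-induced ribonucleotide reductase subunit gene, at 0.11 ± 0.14. Rps6ka5 was at 76.2 ± 9.36 and 61.5 ± 5.07, opposite in sign to Rps6ka2, and neither passed (adjusted p = 0.575 and 0.589 by limma).

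Among tall peaks with a promoter window, the median log2 difference with and without a motif was -0.06 over 113 and 0.00 over 62 for the CCAAT box and -0.10 over 19 and -0.02 over 156 for the ETS letters. It was 0.00 over 88 and -0.07 over 87 for the antioxidant response letters and -0.08 over 17 and -0.02 over 158 for the glucocorticoid receptor letters. For the TATA box it was -0.15 over 6 and -0.02 over 169. The GC box, the commonest motif, showed little gap, at -0.03 over 153 and -0.02 over 22. The CRE core was at -0.01 over 61 and -0.03 over 114. These are some of the motifs searched, chosen without a rule. These differences between medians were not tested.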

How the data were processed

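Accessibility was deposited as one table of 6425 peaks on mm10 with a column per library. DESeq2 1.36.0, featureCounts, Picard 3.0.0, STAR 2.7.10a and Trimmomatic 0.39 are listed, per the submitters' processing notes, without their roles. The peak caller, duplicate handling and any Tn5 shift are not stated in the labels. The deposited values are a score: reads scaled between libraries and rounded to whole numbers, judged from totals of 124415 to 126782 and from whole numbers skipped at regular steps. Those steps gave each column's scale factor, and value divided by factor gave estimated reads.

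The planned count test was replaced, because the values are not counts. The main test was limma 3.58.1 (R 4.3.3) on log2(value + 1), with treatment as the only term and a variance trend, unfiltered, Benjamini-Hochberg adjusted over all peaks at 0.05, and tested on simulated data. Widths count both end positions. RefSeq tables of GRCm38.p6 gave promoter windows (179 of 216 tall symbols matched) and gene spans.

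The members and lists were chosen with earlier results of these data known. Named peaks were the 10 highest, all called, the 6 smallest p in each direction, the 2 highest of each family list, the 3 widest and 3 narrowest, the 6 highest without a near start, and those at the threshold. This gave 52 tall peaks, and 18 others were named after their values were seen, as were the peaks named for position alone. Families were matched by symbol pattern. Alternatives were 2 other scalings, pseudocounts of 0.1 and 5, a filter at 10, a square-root scale, the replicate block, robust variance, library weights, each library left out and other ways to choose tall peaks. The ratio of group means and the fit without the 2 shallowest libraries were added after seeing the data.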

Additional observations from a re-analysis of the deposited data

Results flagged for a closer look

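Of 142 sets of 4 libraries tested, 11 held 1 library far from the other 3 by Dixon's ratio of gap to range, where chance alone gives about 7.1. High vehicle libraries were found at Sp1 (replicate 3 at 120, the others 100 to 102), Map3k3 (replicate 3 at 99, the others 72 to 73), Birc6 (replicate 1 at 85, the others 72 to 74), Lcorl (replicate 1 at 51, the others 45 to 46) and the peak near Etfdh (replicate 1 at 62, the others 54 to 55). In myoglobin, Hdgfl2 had replicate 2 at 104 (the others 84 to 87), Khsrp replicate 3 at 95 (the others 79 to 81) and the peak near Mast3 replicate 1 at 55 (the others 48 to 49). Low myoglobin libraries were found at Gsk3b (replicate 3 at 73, the others 94 to 97), Aco1 (replicate 3 at 43, the others 67 to 71) and Lins1 (replicate 2 at 41, the others 53 to 54). Replicates 2 and 3 were the shallowest myoglobin libraries, and their part in these values was not tested. Without the high vehicle library at Lcorl the log2 difference there was 0.67 (adjusted p = 0.0439 by limma).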

How the results depend on the processing

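The 1 higher call among tall peaks, at Lcorl, was kept under both other scalings, both pseudocounts, the filter, robust variance and library weights, with adjusted p of 0.00598 to 0.0304 over the scalings, pseudocounts and filter by limma. The square-root scale also gave 1 higher tall call. Leaving out single libraries gave 0 to 1 higher and 0 lower calls among tall peaks, 7 to 13 higher and 0 to 4 lower calls over all peaks, and a median log2 difference over tall peaks of -0.05 to -0.03. Without the 2 shallowest libraries 0 tall peaks were called higher, and over all peaks 7 were called lower. The causes of these changes were not tested. Over all peaks (13 higher, 3 lower), a pseudocount of 0.1 gave 8 higher and 1 lower, and a pseudocount of 5 and library weights each gave 5 lower. With the replicate block, 1 tall peak was called higher (Lcorl, adjusted p = 0.0422 by limma) and 0 lower, and over all peaks 9 higher and 1 lower. Same-numbered libraries did not deviate together (correlations of deviations -0.013 to 0.026). The spread between libraries was close to read sampling, so such correlations cannot show whether the numbers pair the samples. Thresholds of 40 and 60 gave 512 and 120 tall peaks, the latter with 87.5% within 1000 bp of a start. The 247 highest per kilobase had a median width of 302 bp, with 68.4% within 1000 bp. The share of tall peaks within 100 bp was 26.7% and within 5000 bp 91.5%. Of 70 named differences, 42 kept their sign in every alternative run on a log2 scale, and the square-root scale was not part of this count. Count models (edgeR, DESeq2) were not run, since the values are not counts.

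Every myoglobin library was shallower than every vehicle library, so depth and treatment cannot be told apart. Scaling to near-equal totals hides any change common to all peaks.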
